A study of Mus musculus with 18 samples.

Results

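The 10 genes described here encode the machinery of excitation-contraction coupling at the triad of skeletal muscle, and they were chosen by name from the 43430 genes of the count table: Ryr1, Trdn, Jph1, Jph2, Cacna1s, Cacnb1, Cacna2d1, Cacng1, Stac3 and Cacna1h. All 10 passed the filter on low counts and are among the 13596 genes tested. The rule that chose them uses names and no measured level, but the list was drawn up with earlier results of these data known.

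The libraries were made from polyA RNA of quadriceps myofibers of C57BL/6 mice, adult when treatment began, with 1 library per animal. Male and female mice received i.p. injections for a month in 3 regimens: vehicle (DMSO) every day, daily prednisone (a synthetic glucocorticoid), or weekly prednisone, which was 1 prednisone injection a week with vehicle on the remaining days. The 18 libraries thus formed 6 groups of 3. Myofibers were the part of the collagenase-digested muscle that a strainer held back, so other cell types could be carried along, and in such bulk RNA fewer cells of a type and less RNA per cell cannot be told apart.

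At the triad, a transverse tubule, which is a fold of the surface membrane, runs between cisternae of the sarcoplasmic reticulum. An action potential moves the voltage sensor of the dihydropyridine receptor in the tubule, and the sensor opens the ryanodine receptor of the reticulum through direct contact between the proteins, which releases the calcium that starts contraction. Junctophilins tie the membranes together, triadin anchors the calcium-binding protein of the reticulum near the release channel, and the adaptor STAC3 is needed for the voltage sensor to reach and work at the junction.

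Levels are CPM (the count of a gene scaled to the size of its library, with TMM factors), changes are log2 fold changes ± standard error, and a gene was called when its Benjamini-Hochberg adjusted p over all tested genes in edgeR's quasi-likelihood test was under 0.05. Total counts ranged from 10506661 to 14686654 per library. Raw counts of the 10 genes ran from 67 (lowest library, Cacna1h) to 57156 (highest, Ryr1). Cacna1h lay at or below 219 counts in every library and is the least precisely measured. The 10 myofiber markers summed to between 91160 and 175500 CPM, with none at 0 in any library. The weekly female libraries differed from each other. In female weekly replicate 2, mitochondrially encoded genes held 36.4% of the counts, against 13.1% and 20.3% in replicates 1 and 3. Its 10 adipocyte markers summed to 1173 CPM, against 4420 and 7349. In female weekly replicate 1 the 10 slow-fiber markers summed to 2325 CPM, against 112 to 581 in the other 17 libraries, and the counts of the 10 genes called, and the values that it moves most, are also given without it.

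Across the 10 genes, edgeR called Cacng1 lower under daily prednisone and, over both sexes, Cacna2d1 higher, 2 of the 10 beside 15% of all genes. Under weekly prednisone it called none of the 10 and 0% of all genes. Cacng1 had a similar value under both regimens over both sexes, -0.52 ± 0.13 under weekly (not called) and -0.61 ± 0.13 under daily prednisone. Between daily and weekly prednisone, Ryr1, Cacna1s, Cacna2d1 and Jph1 were called higher under the daily regimen when both sexes were averaged. These are 4 of the 10, beside 8.17% of all genes. The calls of Cacna1s and Jph1 were each lost in 10 of 12 fits without 1 library. With length and GC trends removed, 0 of the 10 and 101 of all genes were called in this comparison. The plot of the levels of each gene gives all 18 values.

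**Figure D1:**
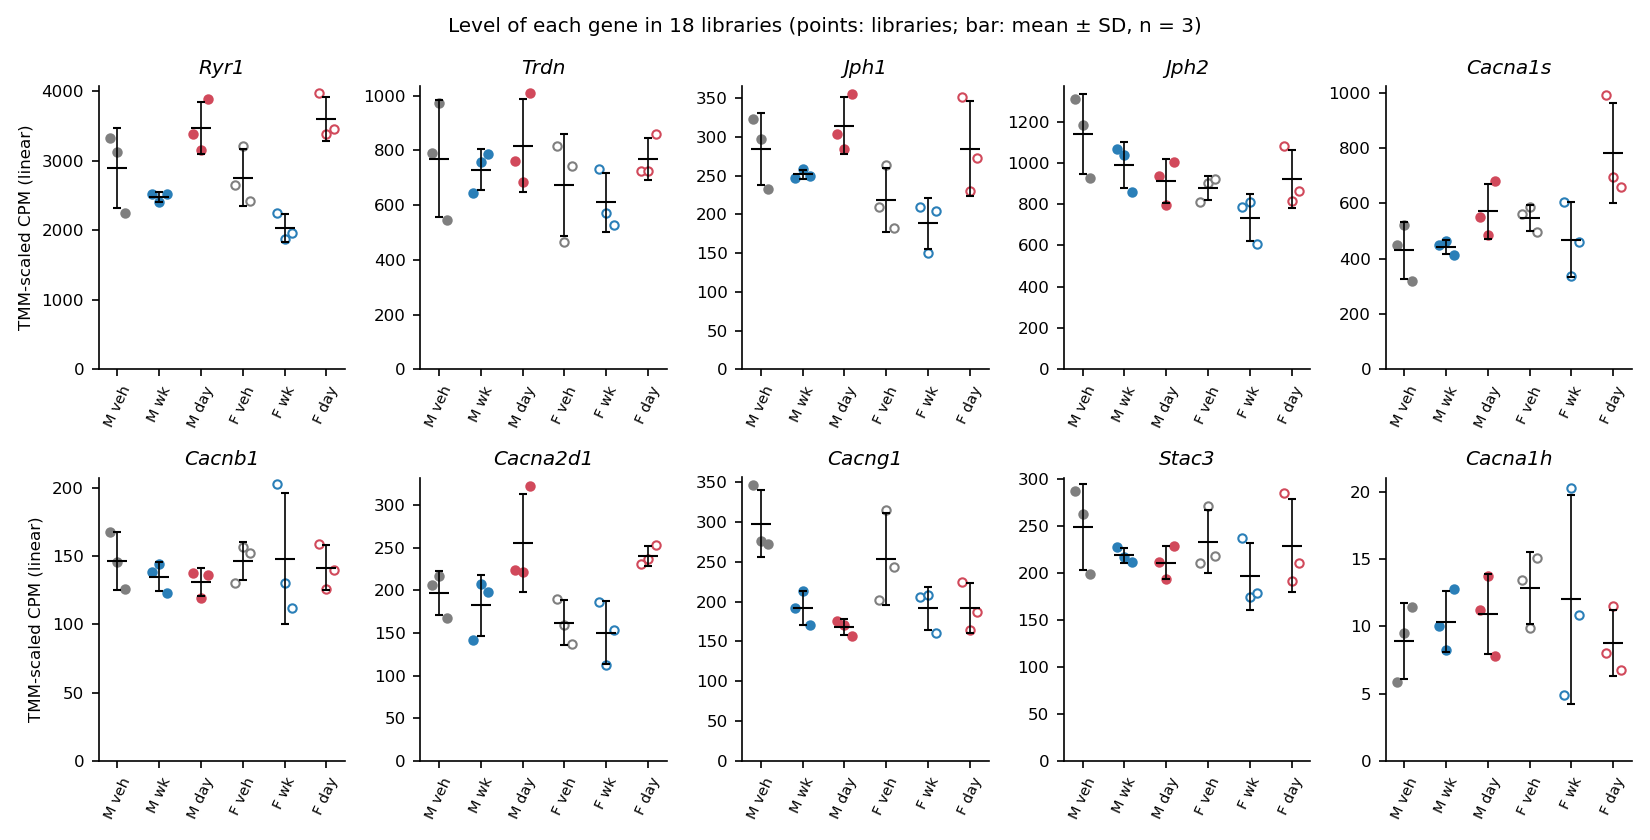
Level of each of the 10 genes in 18 libraries, in TMM-scaled CPM on linear axes that start at 0 (M, male with filled points; F, female with open points; veh, vehicle; wk, weekly prednisone; day, daily prednisone; bars, mean ± SD, n = 3). In males, the 3 daily Cacng1 values (157 to 176) lie below the 3 vehicle values (272 to 346), while Ryr1 reaches 3145 to 3886 under daily and 2399 to 2515 under weekly prednisone.

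Ryr1, the calcium release channel of the sarcoplasmic reticulum, lies on chr7:29003340-29125151 (mm10, minus strand). In males it stood at 3322, 3118 and 2242 CPM under vehicle, 2515, 2399 and 2515 under weekly prednisone, and 3377, 3145 and 3886 under daily prednisone. In females the values were 2642, 3207 and 2418 under vehicle, 2253, 1870 and 1960 under weekly prednisone, and 3965, 3378 and 3453 under daily prednisone. In both sexes every daily library exceeded every weekly one, and in females the 3 groups did not overlap at all. Averaged over the sexes, Ryr1 was 1.58-fold higher under daily than under weekly prednisone (log2 0.66 ± 0.12, 95% interval 0.40 to 0.91, adjusted p = 0.00789). That call remained in all 12 fits that left out 1 library, at 0.62 to 0.70, and ended when each library's trends on length and GC content were removed (0.54, adjusted p = 0.136). Against vehicle the gene was not called in either direction. The mean of both sexes was 0.32 ± 0.12 for daily (adjusted p = 0.0819) and -0.33 ± 0.12 for weekly prednisone (adjusted p = 0.321), so vehicle lay between the regimens.

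Cacna1s encodes the pore and voltage sensor of the dihydropyridine receptor and lies on chr1:136052750-136119822 (plus strand). In males it measured 449, 522 and 320 CPM under vehicle, 449, 465 and 415 under weekly prednisone, and 550, 485 and 681 under daily prednisone. In females it measured 561, 586 and 496 under vehicle, 607, 338 and 462 under weekly prednisone, and 992, 696 and 661 under daily prednisone. All daily libraries lay above all weekly libraries of their sex, whereas daily and vehicle males overlapped. The daily minus weekly difference was 0.55 ± 0.16 (adjusted p = 0.0409) over both sexes. The value ran from 0.45 to 0.67 over the 12 fits without 1 library, and the call was lost in 10 of them (all but those without male daily replicate 2 or female weekly replicate 1). Daily against vehicle gave 0.46 ± 0.16 (adjusted p = 0.0597), which was not called. On the opposite strand, the exons of the antisense gene Gm37759 cover 20.0% of the exon length of Cacna1s. The strand setting of the counting is not stated, so their reads cannot be told apart. Gm37759 itself held 465 counts over all libraries.

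Cacna2d1 encodes the extracellular alpha2delta subunit of the channel and lies on chr5:15934691-16374511 (plus strand). Its CPM in males was 207, 217 and 167 under vehicle, 141, 207 and 199 under weekly prednisone, and 224, 221 and 322 under daily prednisone. In females it was 190, 160 and 137 under vehicle, 186, 112 and 153 under weekly prednisone, and 231, 237 and 253 under daily prednisone. The 3 daily libraries of each sex were above all other libraries of that sex. Over both sexes the gene rose 1.39-fold against vehicle (0.47 ± 0.15, adjusted p = 0.0387) and 1.50-fold against weekly prednisone (0.58 ± 0.15, adjusted p = 0.0251). Without 1 library the first value ran from 0.39 to 0.55 and its call was lost in 7 of 12 fits: without male vehicle replicate 1 or 3, male daily replicate 3, female vehicle replicate 2 or 3, or female daily replicate 2 or 3. The second ran from 0.51 to 0.67 and its call was lost in 2 of 12, without male or female daily replicate 3. With the replicate number as a block, the adjusted p of the first was 0.0550.

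Jph1 encodes a junctophilin and lies on chr1:16964560-17097889 (minus strand). Males had 323, 297 and 233 CPM under vehicle, 247, 259 and 250 under weekly prednisone, and 304, 284 and 356 under daily prednisone. Females had 209, 264 and 183 under vehicle, 210, 151 and 205 under weekly prednisone, and 352, 230 and 273 under daily prednisone. Daily libraries were all above the weekly ones of the same sex, and overlapped with vehicle in both. Daily against weekly gave 0.46 ± 0.13 (adjusted p = 0.0430), a call lost under the replicate block (adjusted p = 0.0533). It was also lost in 10 of 12 fits without 1 library (0.37 to 0.53), all but those without female weekly replicate 1 or female daily replicate 2. Jph2, the other junctophilin of muscle, was not called. Its difference between daily and weekly prednisone was -0.11 ± 0.17 in males and 0.32 ± 0.17 in females.

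Cacng1 encodes the gamma subunit of the muscle channel, which dampens its calcium current, and lies on chr11:107703218-107716522 (minus strand). It was the only gene of the 10 called lower in any comparison. Males on vehicle had 346, 276 and 272 CPM, those on weekly prednisone 192, 214 and 171, and those on daily prednisone 176, 171 and 157. Females on vehicle had 202, 315 and 244 CPM, those on weekly prednisone 206, 208 and 160, and those on daily prednisone 225, 164 and 187. In males every treated library was below every vehicle library, and in females the groups overlapped. Under daily prednisone the level in males was 0.564 of that under vehicle (-0.83 ± 0.18, adjusted p = 0.0153), and the mean of both sexes was -0.61 ± 0.13 (adjusted p = 0.00444). The call in males was lost without male vehicle replicate 1, male daily replicate 2 or male daily replicate 3 (values over the 6 fits, -0.87 to -0.69; highest adjusted p, 0.0886). The call over both sexes held in all 12 such fits. It ended with the adipocyte score as a covariate (adjusted p = 0.229), where 11 of all genes were called. It also ended with length and GC trends removed (adjusted p = 0.0751), where 785 were. In females alone daily prednisone gave -0.40 ± 0.18 (adjusted p = 0.250), and the response did not pass the test of a difference between the sexes (0.43 ± 0.25, 95% interval -0.10 to 0.95, adjusted p = 0.889). Weekly prednisone gave -0.63 ± 0.18 in males, with an adjusted p of 0.849, and -0.40 ± 0.18 in females, with an adjusted p of 0.573. Neither was called, and the daily minus weekly difference over both sexes was -0.09 ± 0.13.

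The share of all genes called is the background for these counts. Daily prednisone called 6.46% of all tested genes in males (4.38% as lower), against 1 of the 10 coupling genes, which was lower. In females 0.382% of all genes and 0 of the 10 were called, with 4 of the 10 at an unadjusted p under 0.05 and 0 called by DESeq2 or limma-voom. Of all genes 2354 had such a p, and DESeq2 called 530 and limma-voom 52. Over both sexes 15% of all genes were called (7.48% higher and 7.47% lower), and 2 of the 10, 1 in each direction. The median log2 fold change of the 10 was 0.12 in males, 0.13 in females and 0.02 over both sexes, beside 0.05, 0.01 and 0.02 for all genes.

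For weekly prednisone against vehicle edgeR called 0% of all genes and 0 of the 10, in males, in females and over both sexes. At an unadjusted p under 0.05 there were 1, 2 and 2 of the 10, and 777, 1083 and 1492 of all genes. DESeq2 called 1, 152 and 183 of all genes and limma-voom 0 each. The genes at that level were Cacng1 in all 3 comparisons and Ryr1 in females and over both sexes. DESeq2 called 1 of the 10 over both sexes, Cacng1 at -0.53 (adjusted p = 0.00781), and limma-voom none. The medians of the 10 were -0.15, -0.22 and -0.15, beside 0.01, 0.01 and 0.02 for all genes, and 2, 1 and 1 of the 10 had a positive value. Without female weekly replicate 1, the median of the 10 in females was -0.31, with Cacna1h alone positive, and edgeR again called 0 of the 10 and 0 of all genes. Cacna1s then moved from -0.22 to -0.46 and Cacnb1 from 0.02 to -0.28, neither called. The weekly counts depended on female weekly replicate 2. Without it, edgeR called 0 of the 10 and 253 of all genes in females, and 1 of the 10 and 174 of all genes over both sexes.

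For daily against weekly prednisone, 0% of all genes were called in males and 0% in females by edgeR, and 8.17% over both sexes (4.30% higher), against 4 of the 10 over both sexes, all higher. At an unadjusted p under 0.05 there were 1829 of all genes in males and 2401 in females, where DESeq2 called 225 and 546 and limma-voom 0 and 2. In males 2 of the 10 had an unadjusted p under 0.05 and DESeq2 and limma-voom called 0. In females 4 of the 10 did, and DESeq2 called these 4 (Ryr1, Cacna1s, Cacna2d1 and Jph1), while limma-voom called 0. With the replicate block over all 18 libraries, edgeR called 0 of the 10 and 1 of all genes in females. Female libraries with the same replicate number in their titles under daily and weekly prednisone deviated alike. A block for that number in these 6 libraries alone was added for this reason, after the data were seen, so its calls are not independent support. With this added block edgeR called 3 in females: Ryr1 at 0.83 (adjusted p = 0.0207), Cacna1s at 0.76 (adjusted p = 0.0317) and Jph1 at 0.59 (adjusted p = 0.0416). Of all genes 522 were called with that block. Without female weekly replicate 1, the library with the slow-fiber signal, edgeR called 2 in females, Ryr1 at 0.91 (adjusted p = 0.0391) and Cacna1s at 0.97 (adjusted p = 0.0427), and again 4 over both sexes. Of all genes 312 and 1122 were called then. The plot of changes by sex shows the 3 comparisons side by side. The comparisons share libraries, so their values are not independent.

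**Figure D2:**
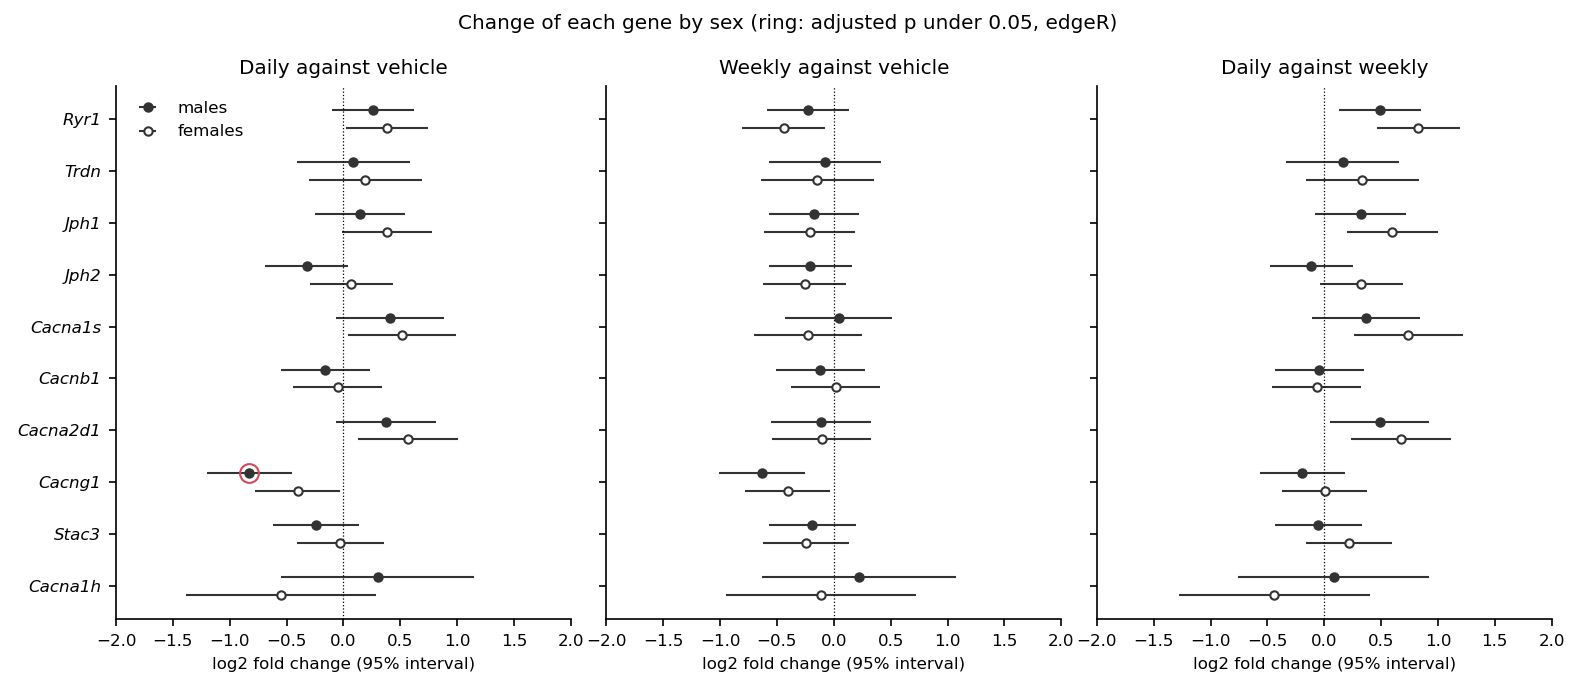
Log2 fold change of each gene with its 95% interval in edgeR (x axis) for 3 comparisons, in males (filled) and females (open), 3 libraries a group; a ring marks an adjusted p under 0.05 and the dotted line no change. The only ring is Cacng1 in males under daily prednisone (-0.83), and the largest daily minus weekly value is that of Ryr1 in females (0.83).

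The remaining genes did not pass the test in any comparison. Over the 18 libraries, Trdn (triadin) ranged from 464 to 1008 CPM, Jph2 from 607 to 1312, Stac3 from 174 to 286 and Cacnb1, the cytoplasmic beta subunit that folds and targets the pore, from 112 to 202. Under daily prednisone the changes over both sexes were 0.14 ± 0.17 for Trdn, -0.13 ± 0.12 for Jph2, -0.13 ± 0.13 for Stac3 and -0.10 ± 0.13 for Cacnb1. The 95% intervals were -0.21 to 0.49, -0.39 to 0.13, -0.40 to 0.14 and -0.38 to 0.17, so changes of these sizes could not be told from none at this spread. The groups of these genes overlapped between daily and vehicle in both sexes. For Jph2 in females, the highest weekly value (811.2 CPM) lay just below the lowest vehicle (811.3) and daily (817.4) values, while in males the weekly group overlapped both. Weekly against vehicle in females was -0.26 ± 0.17 for Jph2, not called.

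Cacna1h, the pore of a T-type channel that opens at low voltage and is not part of the mature triad's voltage sensor, ranged from 4.89 to 20.3 CPM, and both extremes were female weekly libraries. Daily prednisone gave 0.30 ± 0.40 in males and -0.55 ± 0.40 in females. The difference between the sexes was -0.85 ± 0.56 (95% interval -2.05 to 0.34, adjusted p = 0.889). Weekly prednisone gave 0.22 ± 0.40 in males and -0.11 ± 0.39 in females, the latter resting on single libraries: it was 0.27 without female weekly replicate 1 and -0.74 without replicate 2, and over both sexes 0.06 became 0.25 and -0.26. None of these was called. In every comparison of treatments the groups overlapped.

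For the difference between the sexes in the daily and in the weekly response, edgeR called 0% of all genes each, and 0 of the 10. None of the 10 had an unadjusted p under 0.05 there (638 and 357 of all genes did). DESeq2 called 2 and 0 of all genes, limma-voom 0 each, and both called 0 of the 10. Females and males on vehicle differed in 0.765% of all genes and in 0 of the 10, with 1 of the 10, Jph2, at an unadjusted p under 0.05 (-0.38 ± 0.17, adjusted p = 0.462). DESeq2 and limma-voom called 0 of the 10 here too. Of all genes 1418 had an unadjusted p under 0.05, and DESeq2 called 235 and limma-voom 93.

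Per kilobase of merged exon (GENCODE M21), Jph2 had the highest mean level in all 6 groups, at 173 to 268 CPM per kb, and Cacna1h the lowest, at 0.899 to 1.31. In vehicle males the order was Jph2 (268 ± 45.9, SD, n = 3), Cacng1 (239 ± 33.6), Ryr1 (132 ± 26.3), Stac3 (97.9 ± 17.9), Trdn (82.3 ± 23.0), Cacna1s (65.7 ± 15.6), Jph1 (56.9 ± 9.24), Cacnb1 (32.3 ± 4.62), Cacna2d1 (15.9 ± 2.11) and Cacna1h (0.917 ± 0.290). Of these neighbours in order, Cacng1 and Ryr1 did not overlap, nor did Jph1 and Cacnb1, Cacnb1 and Cacna2d1, or Cacna2d1 and Cacna1h, while all other adjacent pairs overlapped. With these lengths, Ryr1 and Cacng1 exchanged places under daily prednisone in both sexes. In males they stood at 159 ± 17.4 and 135 ± 7.69 CPM per kb, without overlap, and in females at 165 ± 14.6 and 154 ± 24.8, with overlap. The order depends on the exon model: with the length given in the deposited table, which is 30714 bases for Ryr1 against 21838 in M21, Cacng1 or Trdn led in every group, Jph2 came behind them, and Cacng1 stayed above Ryr1 under daily prednisone (134.5 against 113 in males and 154 against 117 in females).

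Ryr1 made up 99.88% to 99.98% of the signal per kilobase of the ryanodine receptors, Stac3 98.0% to 99.7% of the STAC genes, Cacna1s 98.6% to 99.8% of the high-voltage pores measured with it, Cacnb1 94.8% to 98.2% of the beta subunits and Cacna2d1 88.6% to 98.7% of the alpha2delta subunits. Ryr3, the embryonic and diaphragm ryanodine receptor, had at most 27 counts in a library and a daily minus vehicle value of 0.22 ± 0.40 over both sexes. Cacng1 held 60.0% to 73.2% of the gamma subunits, and its close relative Cacng6 25.0% to 35.9%. Cacng6 moved the same way as Cacng1. It had 227, 214 and 190 CPM in vehicle males and 149, 118 and 149 in daily males, without overlap, and it fell by 0.60 ± 0.17 on the log2 scale in males (adjusted p = 0.0414) and by 0.44 ± 0.12 over both sexes (adjusted p = 0.0203). Of 27 paralogues of the 10 genes, 14 could be tested, and Cacng6 was the only one called under daily prednisone. That is 1 of 14 in males and over both sexes, beside 6.46% and 15% of all genes. Weekly prednisone called 0 of the 14 and 0% of all genes. The median change of the 14 under daily prednisone was 0.09 in males, -0.12 in females and 0.01 over both sexes. Jph1 held 13.6% to 23.2% of the junctophilins, with a Jph2 to Jph1 ratio of CPM of 4.01 ± 0.05 (SD, n = 3) in vehicle males and 2.91 ± 0.15 in daily males, without overlap. In females it was 3.88, 3.42 and 5.06 under vehicle and 3.08, 3.55 and 3.16 under daily prednisone, with overlap.

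The called genes differ in length. Cacng1, the gene called lower, has the shortest merged exon length of the 10, at 1249 bases. The 4 genes higher under daily than weekly prednisone measure 4998 (Jph1), 6550 (Cacna1s), 12416 (Cacna2d1) and 21838 bases (Ryr1), while Trdn (9352) and Cacna1h (9763), which were not called, lie within that range. Over all tested genes, the slope of a library's log2 level on length was 0.03 to 0.11 per doubling of length in the 6 daily libraries, -0.09 to -0.01 in the 6 vehicle libraries and -0.11 to 0.01 in the 6 weekly libraries, so every daily library lay above every other. When each library's smooth trend on length and GC content was removed, 0 of the 10 genes were called in any of these comparisons. Calls among all 13596 genes fell with them, from 878 to 69 for daily against vehicle in males and from 2033 to 785 over both sexes. For daily against weekly prednisone over both sexes they fell from 1111 to 101. Cacng1 then stood at -0.60 in males (adjusted p = 0.104) and -0.39 over both sexes (adjusted p = 0.0751), and Cacna2d1 against vehicle at 0.15 (adjusted p = 0.638). Daily against weekly prednisone became 0.54 for Ryr1 (adjusted p = 0.136), 0.53 for Cacna1s (adjusted p = 0.195), 0.36 for Cacna2d1 (adjusted p = 0.273) and 0.42 for Jph1 (adjusted p = 0.180). All of these kept their direction. The plot of change against exon length shows the 10 genes with 30 neighbours.

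**Figure D3:**
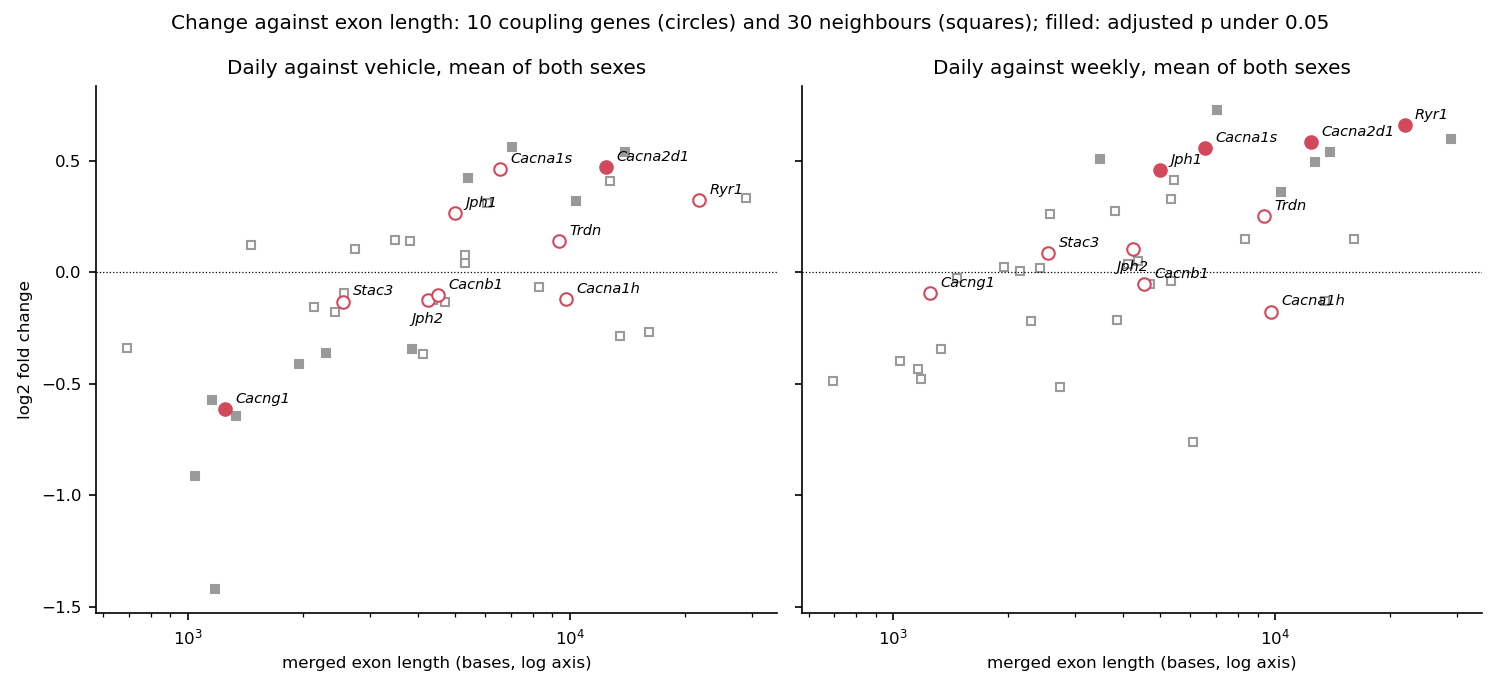
Log2 fold change over both sexes (y axis) against merged exon length in bases (x axis, log scale) for the 10 coupling genes (circles) and 30 other genes of the triad and of calcium handling (squares), daily against vehicle on the left and daily against weekly prednisone on the right; filled symbols have an adjusted p under 0.05. On the left, the genes called lower are 3857 bases or shorter and those called higher 5428 bases or longer.

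Markers of some other cells and of fast fibers also moved with treatment. None of the endothelial, fibroblast, smooth muscle and pericyte, Schwann cell or satellite cell markers was called under daily prednisone over both sexes, beside 15% of all genes. In daily males 1 of the 5 Schwann cell markers was called higher, beside 6.46% of all genes called. The 10 adipocyte markers summed to 604 to 1263 CPM in the vehicle libraries, 1003 to 7349 in the weekly and 1208 to 4763 in the daily ones, with 1 of the 10 at 0 in some library. Of these 10 markers, 8 were called higher under daily prednisone over both sexes, beside 7.48% of all genes. With the adipocyte score as a covariate, Cacng1 stood at -0.70 in males (adjusted p = 0.106) and -0.47 over both sexes (adjusted p = 0.229), and Cacna2d1 against vehicle at 0.23 (adjusted p = 0.646), so these calls ended. Calls among all genes fell with them, from 878 to 51 in males and from 2033 to 11 over both sexes. The score, a mean of log2 CPM, was 3.35 to 4.48 in vehicle, 4.81 to 8.32 in weekly and 5.28 to 8.06 in daily libraries. Vehicle and daily libraries did not overlap in it, so this covariate can hardly separate the score from the treatment. The 4 calls between daily and weekly prednisone all stood with the score as a covariate, Ryr1 at 0.66 (adjusted p = 0.0108), where 1116 of all genes were called. Of the 10 fast-fiber markers, 6 were called lower under daily prednisone over both sexes, beside 7.47% of all genes, and the median of the 10 was -0.52. The list was not uniform: 3 of the 10 had a positive value, up to 0.87. Between daily and weekly prednisone 2 of the 10 were called higher and 0 lower, beside 4.30% of all genes called higher. None of the 10 slow-fiber markers was called, with 5 of the 10 at 0 in some library. With the slow minus fast fiber score as a covariate, Cacng1 stayed called over both sexes (-0.51, adjusted p = 0.0188), as did Ryr1 (0.62, adjusted p = 0.0224) and Cacna2d1 (0.67, adjusted p = 0.0263) between daily and weekly prednisone. The calls of Cacna2d1 against vehicle (0.38, adjusted p = 0.142) and of Cacna1s (0.58, adjusted p = 0.0756) and Jph1 (0.40, adjusted p = 0.122) against weekly prednisone ended. The 10 macrophage markers, none at 0 in any library, summed to 92.4 to 116 CPM in weekly females, against 39.9 to 77.4 in vehicle and 59.8 to 75.3 in daily females, without overlap, and to 62.0 to 80.4 in all male groups. All 10 were positive in weekly against vehicle females (median 0.67) and 0 were called. Their part in the values of the 10 coupling genes was not tested.

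Among 30 further genes of the triad, the tubule and calcium handling, all tested, daily prednisone called 7 lower and 0 higher in males, and 7 lower and 4 higher over both sexes. Of all genes 4.38% were called lower in males, and 7.47% lower and 7.48% higher over both sexes. In females 1 of the 30 was called lower, beside 0.382% of all genes called. Weekly prednisone called 0 of the 30 and 0% of all genes in any comparison. The medians of the 30 under daily prednisone were -0.13 in males, -0.05 in females and -0.11 over both sexes. Mrln, which encodes myoregulin, a small inhibitor of the calcium pump, changed most. It had 93.2, 65.3 and 69.2 CPM in vehicle males and 32.3, 26.1 and 26.8 in daily males, and 74.1, 108 and 49.1 in vehicle females and 38.6, 19.4 and 28.1 in daily females. Neither pair of groups overlapped, and the gene fell by 1.42 ± 0.26 on the log2 scale in males and by 1.43 ± 0.26 in females, with adjusted p of 0.00858 and 0.0429. The call in females ended with the adipocyte score or the slow minus fast fiber score as a covariate, with length trends or length and GC trends removed, with the compared groups alone and without female vehicle replicate 2, female daily replicate 2 or female daily replicate 3, where 0 of all genes were called. Weekly prednisone gave -0.94 ± 0.26 and -0.95 ± 0.26, neither called (adjusted p = 0.849 and 0.247).

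Another 6 of the 30 were called lower in males. With Mrln, the 7 genes measured 1041 to 3857 bases of merged exon, and every daily library had a higher slope on length than any other library. The part of length in these falls was not tested. Pvalb (parvalbumin, the soluble calcium buffer of fast fibers) fell by 1.10 ± 0.20, from 17600 to 21940 CPM under vehicle to 8369 to 9852 under daily prednisone. Jsrp1, a junctional protein that binds the calcium store protein and the voltage sensor, fell by 0.79 ± 0.20, and Casq1 (calsequestrin, the calcium store protein) by 0.60 ± 0.18, with adjusted p of 0.0293 and 0.0493. Orai1, the pore of store-operated calcium entry, fell by 0.60 ± 0.15, and Fkbp1a, which binds and steadies the release channel, by 0.45 ± 0.11, with adjusted p of 0.0293 and 0.0263. Cav3 (caveolin of the muscle surface membrane) was the other one and was named after its values were seen.

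The 4 called higher over both sexes were Scn4a, the sodium channel of the muscle action potential (0.56 ± 0.12, adjusted p = 0.00476), and, named after their values were seen, Mtm1, Clcn1 and Stim1. These 4 measured 5428 to 13935 bases of merged exon, and the part of length in their values was not tested. Scn4a had 372, 363 and 248 CPM in vehicle males and 431, 433 and 525 in daily males, and 277, 305 and 304 in vehicle females and 516, 417 and 434 in daily females, without overlap in either sex. Between daily and weekly prednisone 6 of the 30 were called higher and 0 lower over both sexes, beside 4.30% of all genes called higher. Scn4a was one (0.73 ± 0.12, adjusted p = 0.00573) and Atp2a1, the calcium pump of fast fibers, another (0.51 ± 0.14, adjusted p = 0.0322). Atp2a1 was not called against vehicle (0.15 ± 0.14 for daily and -0.36 ± 0.14 for weekly prednisone). The heat map of the neighbour genes shows all 30.

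**Figure D4:**
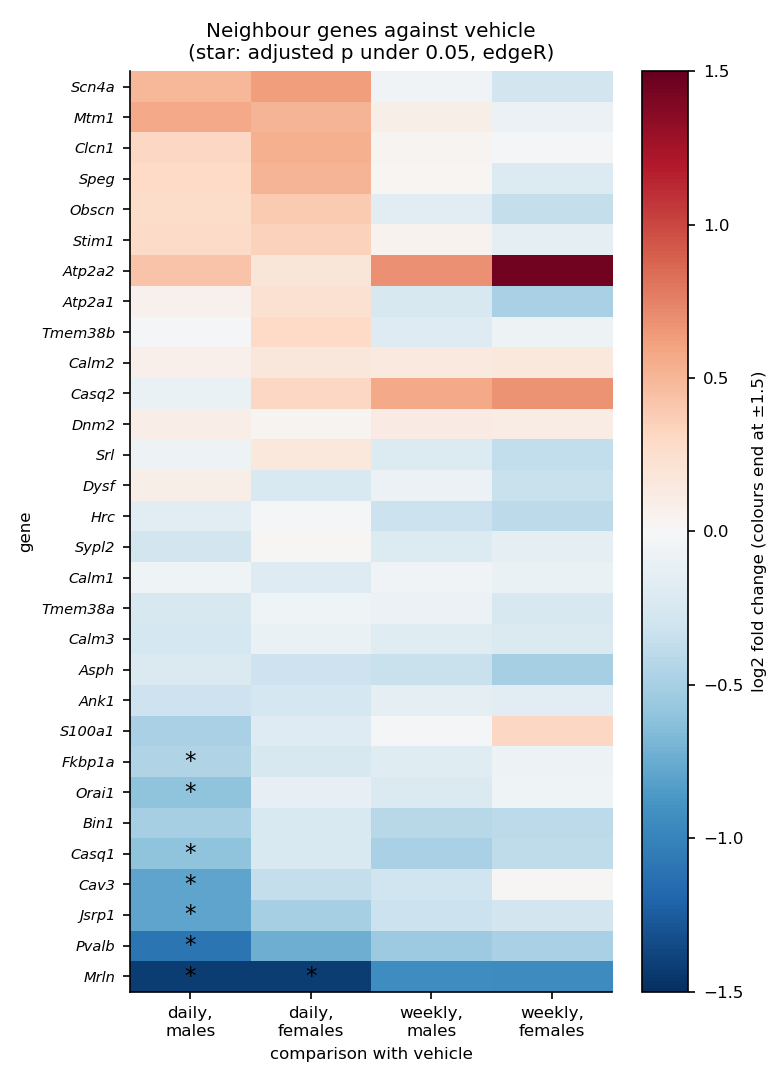
Log2 fold change against vehicle (colour, red higher and blue lower) of 30 genes of the triad and of calcium handling (rows, sorted by the daily change over both sexes) in 4 comparisons (columns), 3 libraries a group; a star marks an adjusted p under 0.05 in edgeR. All 8 stars are negative, 7 of them in males on daily prednisone.

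Promoter windows from RefSeq (GRCm38.p6, 250 bases before to 50 after the start) were found for 5 of the 10 genes: Ryr1, Cacna1s, Cacna2d1, Cacnb1 and Jph2. Those of the 3 genes called higher under daily than weekly prednisone are printed 5′ to 3′ on the gene's strand, with E-boxes (CANNTG, the letters bound by myogenic factors) in capitals.

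Ryr1, chr7:29125102-29125401 (minus strand): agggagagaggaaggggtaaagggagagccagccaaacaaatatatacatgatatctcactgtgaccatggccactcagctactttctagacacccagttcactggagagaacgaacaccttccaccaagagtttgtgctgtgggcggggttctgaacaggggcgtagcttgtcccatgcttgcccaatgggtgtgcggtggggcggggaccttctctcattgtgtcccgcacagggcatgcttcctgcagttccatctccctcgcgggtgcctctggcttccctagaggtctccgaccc
Cacna1s, chr1:136052561-136052860 (plus strand): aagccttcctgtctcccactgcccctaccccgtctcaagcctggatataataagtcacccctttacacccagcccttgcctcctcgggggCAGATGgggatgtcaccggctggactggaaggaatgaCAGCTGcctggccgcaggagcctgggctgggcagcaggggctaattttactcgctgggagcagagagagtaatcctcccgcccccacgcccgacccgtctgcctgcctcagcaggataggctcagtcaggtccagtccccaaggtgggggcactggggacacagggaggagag
Cacna2d1, chr5:15934441-15934740 (plus strand): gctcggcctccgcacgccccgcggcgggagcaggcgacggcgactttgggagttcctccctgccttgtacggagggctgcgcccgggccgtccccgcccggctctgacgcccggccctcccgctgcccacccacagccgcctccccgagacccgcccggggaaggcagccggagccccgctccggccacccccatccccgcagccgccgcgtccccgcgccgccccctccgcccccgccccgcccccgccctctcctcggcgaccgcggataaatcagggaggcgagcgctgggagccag

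These letters and 2 other motifs were searched on both strands. The glucocorticoid receptor consensus ACANNNTGT was in 0 of the 7 windows of the 5 genes and in 6.85% of all 32851 windows, and the MEF2 consensus CTAAAAATA in 0 and in 0.518%. E-boxes were in 72.3% of all windows. They were in the Cacna1s window (2), in 1 of the Cacnb1 windows (1) and in both Jph2 windows (1 each, overlapping windows), and in neither the Ryr1 nor the Cacna2d1 window. These matches describe letters in a window and were not tested.

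The 10 genes did not vary as a block. Over the 18 libraries, the highest Pearson correlation of log2 CPM between 2 of the genes was 0.848, for Ryr1 and Jph1, and Cacna1h had a median of -0.45 with the others. The genes closest to their mean profile were Rragd (r = 0.951), Kif1c (0.937), Srl (0.933), Dcaf6 (0.932) and Dennd4b (0.932). The libraries share their treatment groups, scaling and length slopes, so these values are descriptions.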

How the data were processed

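RNA-seq libraries of 18 mice were analysed, with groups and replicate numbers from the sample titles. The authors deposited whole-number read counts per gene without normalization. Per the submitters' processing notes, TopHat2 2.1.0, Bowtie2 2.2.6 and HTSeq were used, with builds mm10 and mm9. Coordinates in the table are those of mm10. The strand setting and annotation release are not given in the sources used here. Of 43430 identifiers, 42462 matched a GENCODE M21 symbol, and 0 columns of per-library values were left out.

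Counts were tested in R 4.3.3 with edgeR 4.0.16: filterByExpr with a minimum count of 10, TMM factors, and a robust quasi-likelihood fit of 6 group means over all 18 libraries, with Benjamini-Hochberg adjustment over 13596 genes. Standard errors came from the fold change and the F statistic. The biological coefficient of variation was 0.224, and p-values measure the spread between mice. Scripts were tested on simulated data. The members and gene lists were chosen with earlier results of these data known. The rule for names takes all 10 members, the neighbours and paralogues called against vehicle (at most the 5 with the smallest p per comparison), Atp2a1, Casq1 and Ryr3, and the 5 genes most like the members' mean. A score is the mean log2 CPM of a list's markers, with a prior count of 2.

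Alternatives were DESeq2 1.42.0 and its size factors, limma-voom (limma 3.58.1), other filters, the compared groups alone, mitochondrially encoded genes left out, the replicate number as a block, marker scores as covariates, length and GC trends removed with splines of 5 degrees of freedom, and each library left out. The trend on length alone and a block for daily and weekly females were added after the data were seen. Same-numbered libraries pair by their deviations only there, with correlations of 0.501, 0.483 and 0.439, a link that the labels do not state. No libraries of a group agreed within sampling noise (chi-square per gene at least 12.7). Figures were drawn with matplotlib 3.10.9.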

Additional observations from a re-analysis of the deposited data

How the results depend on the processing

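No value of the 10 genes turned its direction between called values in any alternative. Of 2470 values under the alternatives, 2268 kept their direction and side of the threshold, 57 lost a call, 19 gained one and 126 changed sign where neither value was called. The number of the 10 genes called changed as follows. For daily against vehicle in males (1), it was 0 with the adipocyte score as a covariate, with length and GC trends removed and with the length trend alone removed, and 0 to 1 without 1 library. Of all genes 878 were called in the main fit, 72 with the length trend alone removed and 92 to 414 without 1 library. For daily against vehicle over both sexes (2), the number of the 10 was 4 with DESeq2 and with the stricter filter of 50 counts, 3 with no filter on low counts and with the compared groups alone, 1 with the replicate block and with the slow minus fast fiber score, and 0 with the adipocyte score, with length and GC trends removed and with the length trend alone removed. It ran from 1 to 3 without 1 library. Of all genes the main fit called 2033, DESeq2 2354, the stricter filter 2196, no filter 1632 and the compared groups alone 2386. The number called was 2002 with the replicate block, 1282 with the slow minus fast fiber score and 780 with the length trend alone removed. Without 1 library 1340 to 2475 of all genes were called. For weekly against vehicle over both sexes (0), the number of the 10 was 1 with DESeq2 and 0 to 1 without 1 library (1 without female weekly replicate 2). Of all genes the main fit called 0, DESeq2 183 and fits without 1 library 0 to 174. For daily against weekly in females (0), the number of the 10 was 4 with DESeq2, 1 with the stricter filter, 3 with the replicate block in daily and weekly females, and 0 to 2 without 1 library. That block was added after the data were seen, so its calls are not independent support. Of all genes the main fit called 0, DESeq2 546, the stricter filter 200, the added block 522 and fits without 1 library 0 to 312. For daily against weekly over both sexes (4), the number of the 10 was 1 with the compared groups alone, 2 with the slow minus fast fiber score, 3 with the replicate block, 0 with length and GC trends or the length trend alone removed, and 1 to 4 without 1 library (1 without male daily replicate 3 or female daily replicate 3). Of all genes the main fit called 1111, the compared groups alone 535, the slow minus fast fiber score 716 and the replicate block 1031. With the length trend alone removed 88 of all genes were called, and without 1 library 568 to 1122. The replicate block moved no other count of the 10. Where not stated in the report, the cause was not tested. Removing length trends also lowered the number of all genes called, to 69 in daily males and to 785 (daily against vehicle) and 101 (daily against weekly) over both sexes. The adipocyte score as a covariate lowered that number to 51 in daily males and to 11 over both sexes (daily against vehicle).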
